A study of Homo sapiens with 8 samples.

Results

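Messenger RNA of 45 genes that build, activate, assemble or control the proteasome was measured in PANC-1 cells treated with eupalinolide B (EB) or with the vehicle DMSO. PANC-1 cells were first grown from a human pancreatic ductal carcinoma and are kept as an established line, and EB is a sesquiterpene lactone from the plant Eupatorium lindleyanum. The EB group held 4 libraries from cells given 10 μM EB, the DMSO group held 4 control libraries, and RNA was taken after 24 h in both. A single cell line, dose and time were measured. The genes were the rows of the deposited table whose Ensembl identifier maps to a listed symbol, and all 45 were found among the 20263 genes of that table. They fell into the alpha ring (7 genes) and the beta ring (7) of the 20S core, the ATPases (6) and the non-ATPase subunits (12) of the 19S regulatory particle, the activators (4), the assembly factors (7) and a pair of genes of transcriptional control, NFE2L1 and DDI2. The deposited values are TPM (a transcript abundance measure), a level scaled for transcript length and for the library total, so levels of different genes can be set side by side. A change in TPM is a change in a gene's share of the library, and fewer cells of a kind and less RNA per cell cannot be told apart in such samples.

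The proteasome degrades proteins marked with ubiquitin. Its 20S core is a barrel of stacked alpha and beta rings in which the beta subunits PSMB5, PSMB6 and PSMB7 cut the protein chain, and the 19S particle on its ends recognises, unfolds and threads the substrate. The activator PA28, made of PSME1 and PSME2, can take the place of the 19S particle and does not use ATP. In cells exposed to interferon, PSMB8, PSMB9 and PSMB10 replace the constitutive catalytic subunits and form the immunoproteasome. NFE2L1 is a transcription factor held at the endoplasmic reticulum, where it is degraded while proteasomes are active. When they are inhibited, NFE2L1 is stripped of its sugars, cut by the protease DDI2 and enters the nucleus, where it drives proteasome subunit genes through antioxidant response elements.

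The libraries were checked before the genes were compared. KRT8, KRT18 and KRT19, keratins of duct cells, were expressed and were higher in every EB library than in any DMSO library, with medians of 814.6 and 1712 TPM (KRT8), 415.3 and 1125 TPM (KRT18) and 169.5 and 568.2 TPM (KRT19) for DMSO and EB, and the mesenchymal marker VIM was at 6175 (DMSO) and 7085 TPM (EB), while KRT7, CDH1 and EPCAM stayed below 0.5 TPM in every library. Of 11 markers of other pancreatic, immune, endothelial and stromal cells, 9 were listed at 0 in every library and the highest value of the others, CDH5 and AMY2A, was 0.3048 TPM. The 13 protein-coding genes of the mitochondrial genome took 17.0 to 39.0% of the DMSO libraries and 11.6 to 20.3% of the EB libraries, and replicate 4 was the highest in each group. DMSO replicate 4 was also the lowest of its group for 34 of the 45 proteasome genes, and EB replicate 4 for 28. Because of this, counts are given below also without DMSO replicate 4 and with the nuclear genes rescaled on their own. The depth of the libraries is unknown, since only TPM values were deposited.

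The antioxidant response element was looked for in the 250 bases before each RefSeq start of each gene, as background to the genes that follow. RefSeq windows on GRCh38.p14 were at hand for 39 of the 45 genes. The element was searched on both strands by its core TGACNNNGC, in which N is any base. It was present in 13 of the 39 genes (33.33%) and in 13.22% of all 27305 genes with such a window. The wider form TGANNNNGC, which includes the former, was present in 22 of 39 (56.41% against 40.28% of all genes), and the CCAAT box, bound by NF-Y, in 19 of 39 (48.72% against 37% of all genes). Stretches around the core of 6 genes are shown because the genes on both sides of the response carry it: transcript levels of ADRM1, PSMB3, PSMD12 and PSMG1 were higher with EB, that of PSME1 was lower, and that of PSMD3 did not pass the test. Capitals mark the core, and each stretch is written 5′ to 3′ on the strand of its gene.
ADRM1 (chr20:62302729-62302797, plus strand): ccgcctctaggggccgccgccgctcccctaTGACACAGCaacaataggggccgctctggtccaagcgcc
PSMB3 (chr17:38752607-38752675, plus strand): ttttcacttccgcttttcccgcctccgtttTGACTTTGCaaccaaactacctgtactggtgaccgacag
PSMD12 (chr17:67366704-67366772, minus strand): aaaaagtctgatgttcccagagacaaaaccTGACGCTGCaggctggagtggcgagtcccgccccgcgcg
PSMG1 (chr21:39183596-39183664, minus strand): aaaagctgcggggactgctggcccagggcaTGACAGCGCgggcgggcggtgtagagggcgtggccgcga
PSMD3 (chr17:39980740-39980806, plus strand): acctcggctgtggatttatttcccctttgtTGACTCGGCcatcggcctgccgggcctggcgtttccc
PSME1 (chr14:24136078-24136146, plus strand): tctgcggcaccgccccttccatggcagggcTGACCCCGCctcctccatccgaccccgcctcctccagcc

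RefSeq gives some genes more than 1 start, 48 windows for the 39 genes, and the distance is to the start of the window shown. In ADRM1, 128 bases lay between the core and the start, and 229 between the core and the gene's other start. The ADRM1 core lies inside the span that GENCODE 44 gives the gene, but in none of its exons. The bases between core and start were 95 in PSMB3, 156 in PSMD12, 174 in PSMG1, 28 in PSMD3 and 77 in PSME1. Among the genes with a window, 6 of 17 that rose held the core. So did both that fell and 5 of 20 that did not pass the test. All 6 genes without a window rose, so those 17 leave them out. Genes with and without the core were found on each side of the test's threshold. A match is a run of letters in the window and not a measured binding site.

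Most proteasome genes were expressed at a higher level with EB. Of the 45 genes, 23 rose, 2 fell and 20 did not pass the test (limma on log2(TPM + 1), adjusted p under 0.05 over all 11725 genes tested). Among all genes tested, 15.2% rose and 25.1% fell. The median log2 fold change of the 45 genes was 0.49, and that of all genes tested was -0.11. All 4 EB values lay above all 4 DMSO values for 24 of the 45 genes (16.6% of all genes tested) and below them for 2 (20.3% of all genes tested). None of the 45 genes passed the thresholds that the study used, an unadjusted p under 0.05 with a log2 fold change beyond 1.5 in either direction, which 2.08% of all genes tested did. The plot of change by gene shows the split between the parts of the particle.

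**Figure D1:**
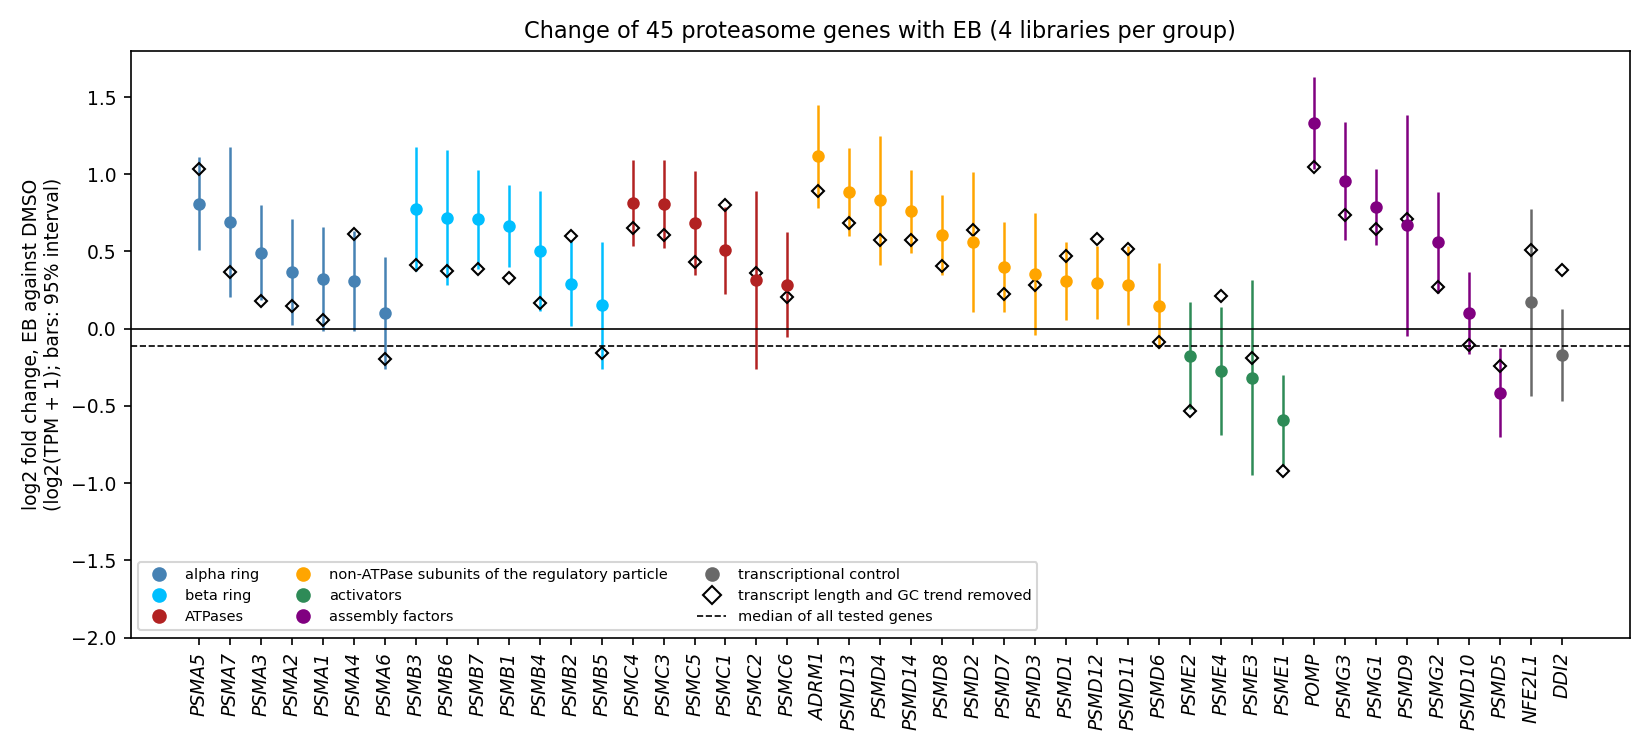
Log2 fold change of each of the 45 genes (y axis, EB against DMSO on log2(TPM + 1)), grouped by part of the proteasome along the x axis, with limma's 95% interval as bars and 4 libraries per group; open diamonds give the change after the trend with transcript length and GC content was removed, and the dashed line is the median of all tested genes (-0.11). All 14 core and 18 regulatory particle genes lie above 0 and all 4 activators below it.

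The core and the regulatory particle were both higher with EB. All 32 of their genes had a log2 fold change above 0, from 0.10 to 1.12, and 19 rose while none fell. The summed TPM of the 14 core genes was 3053 ± 478 in the DMSO libraries and 4472 ± 468 in the EB libraries (mean ± SD, n = 4), 1.46 times as high. That of the 18 regulatory particle genes was 2560 ± 325 and 3988 ± 242, 1.56 times as high. For both sums, no EB library was as low as any DMSO library. Together the 45 genes made up 0.660% ± 0.0864 of the DMSO libraries and 0.952% ± 0.0744 of the EB libraries.

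The direction of the core and regulatory particle was seen library by library. The median over the 45 genes of the difference from the DMSO mean, on the log2(TPM + 1) scale, was 0.14, 0.05, 0.02 and -0.19 in DMSO replicates 1 to 4, and 0.54, 0.48, 0.57 and 0.35 in EB replicates 1 to 4. The groups did not overlap, and the lowest library of each group was replicate 4. Without DMSO replicate 4, 25 genes rose and 3 fell (PSME1, PSME2 and PSMD5), against 15.7% and 36.4% of all genes in that fit. With the nuclear genes rescaled on their own, 19 rose and 5 fell (PSME1, PSME2, PSME4, PSMD5 and DDI2). Of all genes in that fit, 12.1% rose and 41.4% fell. Among the 45 genes, 79.2% of those called were then higher in place of 92%, and the median of all genes tested moved from -0.11 to -0.28. The median of the 45 genes lay 0.60 above that of all genes with all libraries as deposited, 0.55 above it without DMSO replicate 4 and 0.59 above it with the nuclear genes rescaled.

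**Figure D2:**
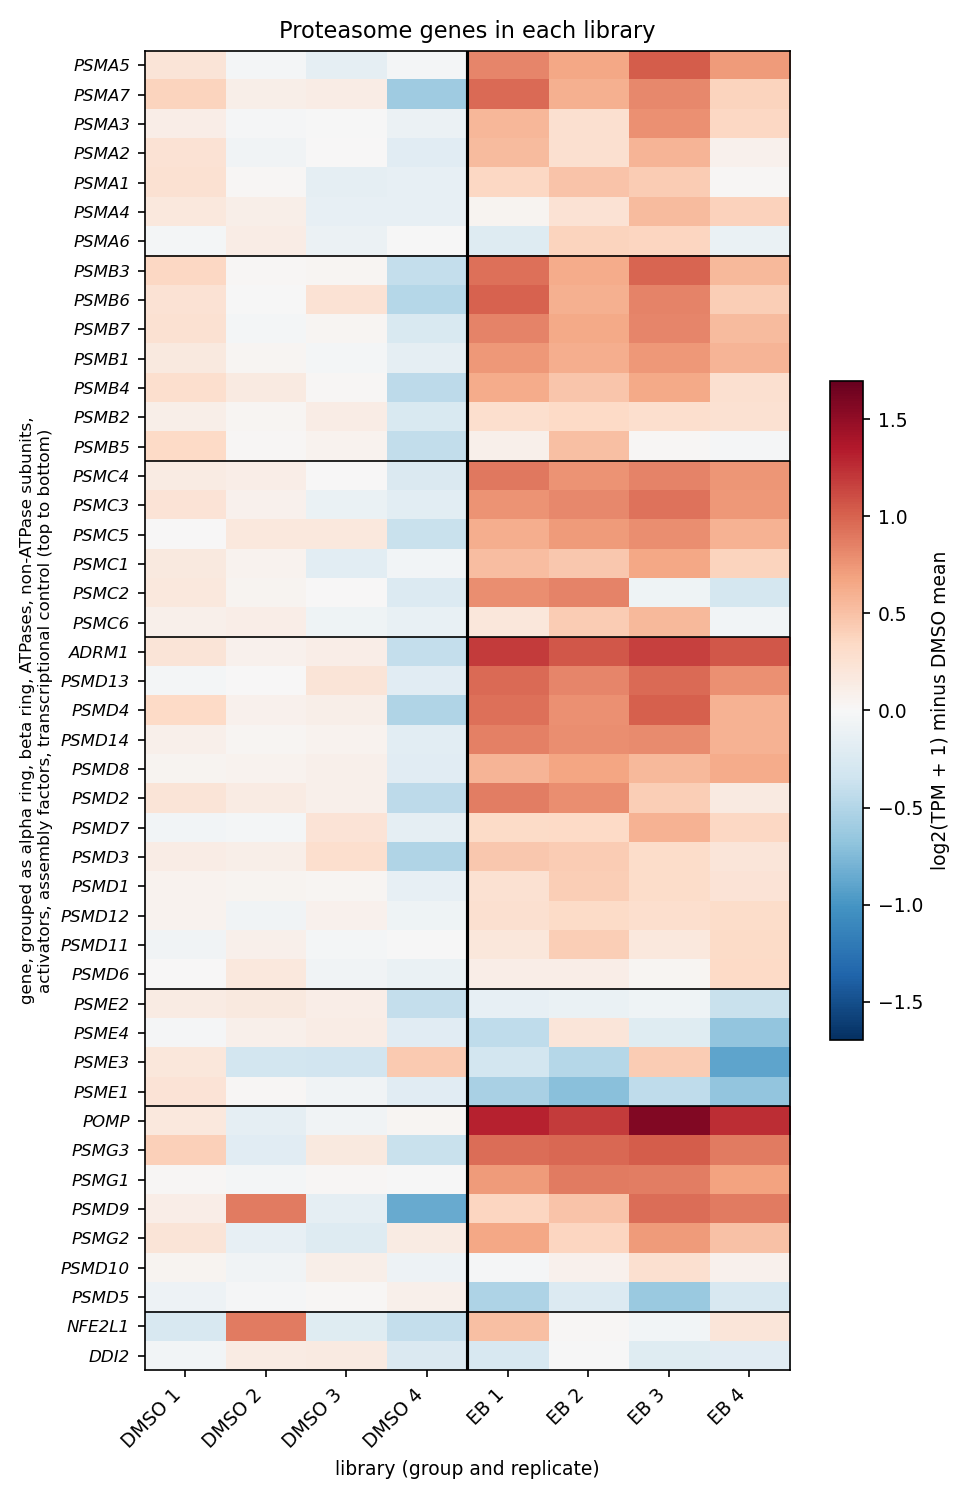
Log2(TPM + 1) minus the DMSO mean (colour, blue lower and red higher) for the 45 genes (rows, by part) in each of the 4 DMSO and 4 EB libraries (columns). Most rows of the core and regulatory particle turn red in the EB libraries, the activators do not, and DMSO replicate 4 is the lowest control library for 34 of the 45 genes.

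In the alpha ring, which forms the gate of the core, 3 of 7 genes rose and none fell, with a median log2 fold change of 0.37 (0.18 with the trend of length and GC content removed). This count and those of the parts below stand beside 15.2% of all genes tested that rose and 25.1% that fell. With that trend removed, 2 of the 7 alpha genes were higher, near the 24.4% of all genes in that fit. PSMA5 (ENSG00000143106, chr1:109399042-109426448 on hg38, GENCODE 44, the build of all positions that follow) was at 47.1, 39.3, 36.0 and 39.3 TPM in the DMSO libraries and at 72.5, 64.3, 82.8 and 67.0 TPM in the EB libraries. The groups did not overlap, and PSMA5 rose by 0.81 ± 0.13 (log2 fold change ± SE, limma adjusted p = 0.00178). PSMA7, one of the most abundant core transcripts, was at 570, 466, 478 and 287 TPM against 851, 664, 774 and 568 TPM with EB. Its change was 0.69 ± 0.22 (limma adjusted p = 0.0298), but the lowest EB value lay just under the highest DMSO value, and the call was kept in 11 of the 17 other ways of analysis. It was lost without DMSO replicate 2 or 3 or EB replicate 1 or 3, with limma adjusted p from 0.0522 to 0.0796, and with the length trend removed (0.36, limma adjusted p = 0.0619) or no filter (limma adjusted p = 0.0541). PSMA3 also rose, by 0.49, a call lost without DMSO replicate 2 or EB replicate 1 or 3 (limma adjusted p from 0.0501 to 0.0575), with the length trend removed (0.18, limma adjusted p = 0.147) or with the nuclear genes rescaled (0.31, limma adjusted p = 0.0571), whereas PSMA1, PSMA2, PSMA4 and PSMA6 had changes of 0.32, 0.37, 0.31 and 0.10 that did not pass the test. PSMA2 passed it without EB replicate 4 (0.46, limma adjusted p = 0.0477). PSMA4 passed it with the length trend removed (0.61, limma adjusted p = 0.0112).

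In the beta ring 5 of 7 genes rose, with a median log2 fold change of 0.67 (0.37 with that trend removed). PSMB6 (ENSG00000142507, chr17:4796144-4798502), the caspase-like subunit, was at 188, 158, 187 and 113 TPM in the DMSO libraries and 318, 242, 285 and 212 TPM with EB. PSMB7 (ENSG00000136930, chr9:124353465-124415444), the trypsin-like subunit, was at 362, 296, 311 and 253 TPM against 542, 473, 539 and 439 TPM. Neither gene's groups overlapped, and the changes were 0.72 ± 0.20 for PSMB6 (limma adjusted p = 0.0166) and 0.71 ± 0.14 for PSMB7 (limma adjusted p = 0.00442). PSMB5 (ENSG00000100804, chr14:23016543-23035230), the chymotrypsin-like subunit, did not follow them. Its values were 198, 159, 163 and 117 TPM with DMSO and 166, 225, 158 and 155 TPM with EB. The groups overlapped and the log2 fold change was 0.15, with a 95% interval from -0.26 to 0.56 (limma adjusted p = 0.540). Its sign turned in 3 of the 17 other ways of analysis, those with quantile normalization, with the nuclear genes rescaled on their own and with the length trend removed.

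The other beta genes carry no active site. PSMB3, a structural subunit, had the largest change of the ring. It was at 392, 311, 315 and 231 TPM in the DMSO libraries and 586, 475, 610 and 450 TPM in the EB libraries, with no overlap and a change of 0.78 ± 0.18 (limma adjusted p = 0.00831). PSMB1 rose by 0.67 and PSMB4 by 0.50, the latter with overlapping groups and a call lost without DMSO replicate 2 or 3 or any one of EB replicates 1 to 3 (limma adjusted p from 0.0624 to 0.108). With the length trend removed the change of PSMB4 was 0.17 (limma adjusted p = 0.171). PSMB2 had a change of 0.29 that did not pass the test, although all of its EB values lay above its DMSO values. With the length trend removed PSMB2 passed it (0.60, limma adjusted p = 0.000348).

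The 6 ATPases form the ring that unfolds substrates, and 4 of them rose. PSMC4 was at 180, 177, 165 and 138 TPM with DMSO and 305, 280, 296 and 276 TPM with EB, a change of 0.81 ± 0.13 (limma adjusted p = 0.00123). PSMC3 was at 175, 157, 139 and 132 TPM against 254, 264, 284 and 250 TPM, a change of 0.81 ± 0.13 (limma adjusted p = 0.00145). In both genes every EB library was well above every DMSO library. PSMC5 and PSMC1 rose by 0.68 and 0.51. PSMC2 split the EB group. Its values were 212 and 221 TPM in EB replicates 1 and 2 but 117 and 99.7 TPM in replicates 3 and 4, against 139, 127, 123 and 104 TPM with DMSO. Its change of 0.32 did not pass the test (limma adjusted p = 0.351), nor did that of PSMC6, 0.28.

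Among the 12 non-ATPase subunits, which receive ubiquitin chains and remove them, 7 rose and none fell. ADRM1 (ENSG00000130706, chr20:62302093-62308862), a ubiquitin receptor that also docks the deubiquitinase UCHL5, had the largest change of all subunits. It was at 283, 255, 264 and 184 TPM in the DMSO libraries and 558, 507, 547 and 507 TPM in the EB libraries, 1.12 ± 0.15 on the log2 scale (limma adjusted p = 0.000662). The lowest EB value exceeded the highest DMSO value by a wide margin. Exons of ADRM1 overlap those of LAMA5 on the opposite strand, and whether reads were counted by strand is not given in the sources used here.

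PSMD13, a scaffold of the lid, was at 75.4, 77.5, 90.3 and 67.1 TPM with DMSO and 152, 137, 152 and 133 TPM with EB, a change of 0.88 ± 0.13 (limma adjusted p = 0.000891). PSMD14 (ENSG00000115233, chr2:161308425-161411717), the metalloprotease that cuts ubiquitin chains off a substrate as it enters, was at 69.6, 67.2, 68.5 and 58.0 TPM against 120, 115, 116 and 99.1 TPM, a change of 0.76 ± 0.12 (limma adjusted p = 0.00147). Both genes were higher in every EB library than in any DMSO library. PSMD4, also a ubiquitin receptor, rose by 0.83, PSMD8 by 0.61, PSMD7 by 0.40 and PSMD12 by 0.30. PSMD2, PSMD3, PSMD1, PSMD11 and PSMD6 had changes of 0.56, 0.35, 0.31, 0.28 and 0.15 that did not pass the test. The call of PSMD7 was kept in 8 of the 17 other ways of analysis and was lost without DMSO replicate 1 or 2 or any EB replicate (limma adjusted p from 0.0517 to 0.103). It was also lost with the length trend removed (0.22, limma adjusted p = 0.101), and the highest limma adjusted p over the 17 was 0.149. The call of PSMD12 was kept in 7 and was lost without any library other than DMSO replicate 4 (limma adjusted p from 0.0775 to 0.125). Over the 17, the lowest change of PSMD12 was 0.12 and its highest limma adjusted p was 0.376. PSMD2 passed the test without EB replicate 4 (0.70, limma adjusted p = 0.0264), and PSMD1 (0.26, limma adjusted p = 0.0401) and PSMD11 (0.28, limma adjusted p = 0.0469) passed it without DMSO replicate 4. With the length trend removed, PSMD2 (0.64, limma adjusted p = 0.00278) and PSMD1 (0.47, limma adjusted p = 0.000837) passed it. So did PSMD11 (0.51, limma adjusted p = 0.00573) and PSMD3 (0.29, limma adjusted p = 0.0193) after that step.

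Among the 4 activators none rose and 1 fell, PSME1, which is near the 25.1% of all genes tested that fell. All 4 had a log2 fold change below 0, with a median of -0.30 against -0.11 for all genes. PSME1 (ENSG00000092010, chr14:24136163-24138967), the alpha subunit of PA28, was at 343, 297, 280 and 255 TPM in the DMSO libraries and 198, 178, 216 and 183 TPM in the EB libraries. The EB values were all below the DMSO values, and PSME1 fell by 0.59 on the log2 scale (SE 0.13, limma adjusted p = 0.00694), a call kept in all 17 other ways of analysis. PSME2, its partner subunit, was at 157, 160, 155 and 108 TPM against 130, 133, 136 and 110 TPM. The groups of PSME2 overlapped through DMSO replicate 4, and its change of -0.18 did not pass the test (limma adjusted p = 0.392). Without that library, PSME2 fell by 0.31 on the log2 scale (limma adjusted p = 0.0358). With the trend of transcript length and GC content removed, PSME2 fell by 0.53 on the log2 scale (limma adjusted p = 0.00173).

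PSME3, the nuclear activator PA28 gamma, was at 118, 82.7, 82.5 and 141 TPM with DMSO and 83.1, 73.2, 140 and 54.8 TPM with EB. Its libraries scattered in both groups and overlapped widely, with a change of -0.32 ± 0.28 (limma adjusted p = 0.392). PSME4, the large activator PA200, had a change of -0.28, and of 0.21 with the length trend removed, and passed the test in neither case. With the nuclear genes rescaled on their own, PSME4 fell by 0.46 on the log2 scale (limma adjusted p = 0.0453). PSME1, PSME2, PSME3 and PSME4 each share exon positions with a coding gene on the opposite strand (EMC9, RNF31, BECN1 and ACYP2), and PSME2 has 6 annotated pseudogenes.

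Ratios within a library do not depend on how the library was scaled. The sum of PSME1 and PSME2 over that of the core was 0.140, 0.146, 0.141 and 0.150 in the DMSO libraries and 0.0684, 0.0715, 0.0723 and 0.0759 in the EB libraries, so the EB mean was 0.499 times the DMSO mean. The groups were far apart relative to their SD (0.00479 and 0.00309). Within PA28, the ratio of PSME1 to PSME2 was 2.05 ± 0.264 with DMSO and 1.53 ± 0.140 with EB (exact two-sided permutation test, p = 0.0286, n = 4 per group, the smallest p that 4 against 4 libraries can give).

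Ratios between the other parts changed little. The regulatory particle over the core was 0.842 ± 0.0459 with DMSO and 0.896 ± 0.0597 with EB, and the groups overlapped. That of ATPases over non-ATPase subunits was 0.369 ± 0.0210 and 0.373 ± 0.0114, again with overlap. The alpha ring over the beta ring was 0.581, 0.597, 0.572 and 0.617 with DMSO and 0.536, 0.550, 0.572 and 0.526 with EB, a ratio of means of 0.922 with groups that just did not overlap.

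**Figure D3:**
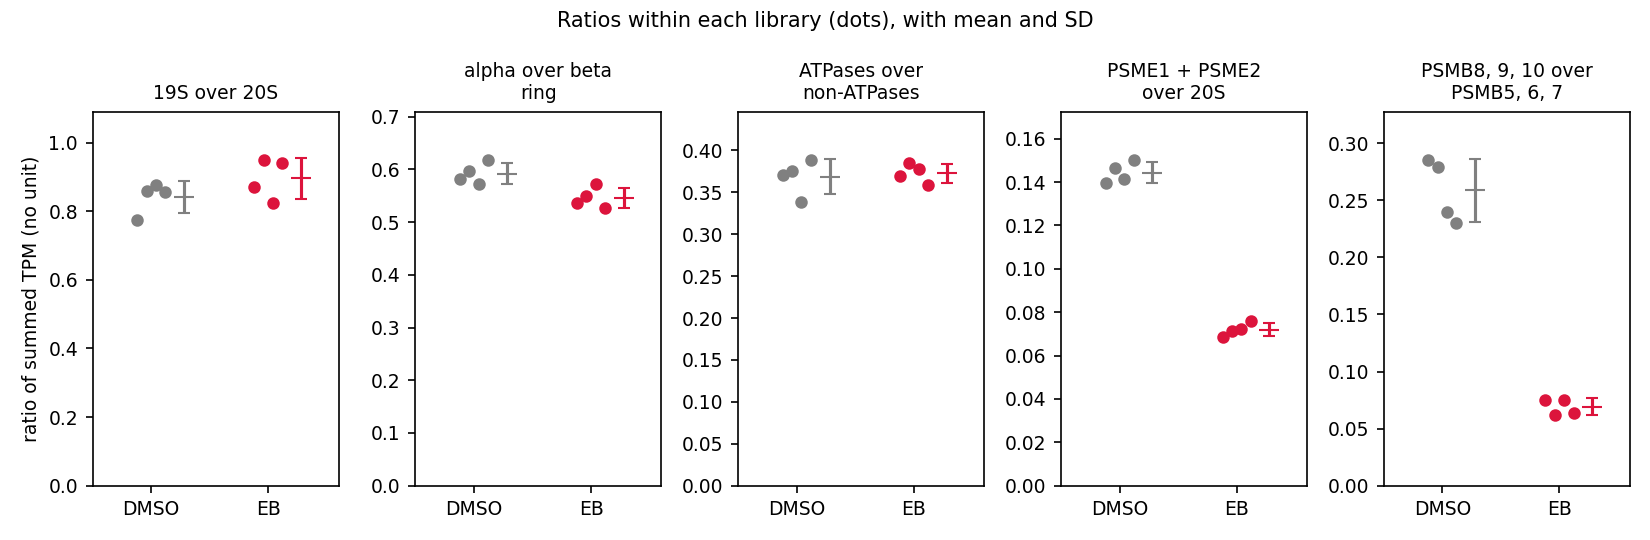
Ratio of summed TPM within each library (y axis, no unit, starting at 0) for 5 pairs of parts, with the 4 DMSO and 4 EB libraries as dots and mean ± SD beside them. The regulatory particle to core and ATPase to non-ATPase ratios overlap between groups, while the ratio of PSME1 and PSME2 to the core falls from 0.144 to 0.0720 and that of the immunoproteasome to the constitutive catalytic subunits from 0.259 to 0.0690.

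Assembly factors, which bring the core or the base of the regulatory particle together and then leave, held the largest change. POMP (ENSG00000132963, chr13:28659065-28678959), the chaperone that helps the core to close and is its first substrate, was at 47.7, 37.8, 40.2 and 42.9 TPM in the DMSO libraries and 105, 97.0, 127 and 102 TPM in the EB libraries. The lowest EB value was far above the highest DMSO value. The log2 fold change was 1.33 ± 0.13 (limma adjusted p = 0.000165), the 110th highest of the 11725 genes tested, and with the length trend removed it was 1.05. POMP over PSMA5, a ratio within the library, was 1.01, 0.960, 1.12 and 1.09 with DMSO and 1.45, 1.51, 1.54 and 1.52 with EB, without overlap (exact two-sided permutation test, p = 0.0286, n = 4 per group). The POMP transcript has 1338 nt and that of PSMA5 has 3815 nt. With the length trend removed, PSMA5 rose by 1.03, near the 1.05 of POMP, so the difference between the genes depends on that step.

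PSMG1, PSMG2 and PSMG3, chaperones of the alpha ring, all rose. PSMG3 was at 87.7, 57.8, 74.6 and 50.9 TPM with DMSO and 128, 131, 136 and 123 TPM with EB, a change of 0.96 ± 0.17 (limma adjusted p = 0.00250) without overlap. PSMG1 rose by 0.79 and PSMG2 by 0.56. PSMG2 lost its call with the length trend removed (0.27, limma adjusted p = 0.0926) and with the nuclear genes rescaled on their own (0.38, limma adjusted p = 0.0791). PSMD5, PSMD9 and PSMD10 are chaperones of the 19S base. PSMD5 was at 33.0, 34.4, 35.5 and 37.2 TPM with DMSO and 24.1, 29.6, 22.2 and 28.7 TPM with EB, lower in every EB library, and fell by 0.42 on the log2 scale (SE 0.13, limma adjusted p = 0.0286). The call of PSMD5 was kept in 10 of the 17 other ways of analysis and was lost with the length trend removed (-0.24, limma adjusted p = 0.125), with median-ratio scaling (-0.30, limma adjusted p = 0.134), with quantile normalization (-0.35, limma adjusted p = 0.102) and without DMSO replicate 2 or 3 or EB replicate 1 or 3 (limma adjusted p from 0.0649 to 0.0889). PSMD10 had a change of 0.10 and PSMD9 one of 0.67 that did not pass the test, and DMSO values of PSMD9 ran from 15.5 to 54.2 TPM. Without DMSO replicate 2, its highest control, PSMD9 rose by 0.97 (limma adjusted p = 0.0228).

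The control genes NFE2L1 and DDI2 did not pass the test at the level of mRNA. NFE2L1 (ENSG00000082641, chr17:48048329-48061545) was at 54.9, 123, 57.7 and 49.8 TPM in the DMSO libraries and 95.2, 67.2, 64.1 and 76.7 TPM in the EB libraries. DMSO replicate 2 was far above the other controls, and the change was 0.17 with a 95% interval from -0.43 to 0.78 (limma adjusted p = 0.641). DDI2 (ENSG00000197312, chr1:15617458-15669044) was at 6.35, 7.43, 7.46 and 5.44 TPM against 5.32, 6.58, 5.58 and 5.66 TPM. The groups overlapped, with a change of -0.17 ± 0.13 (limma adjusted p = 0.326). DDI2 has the longest transcript of the 45 genes, 10667 nt, and with the length trend removed it was higher with EB, by 0.38 (limma adjusted p = 0.00520). With the nuclear genes rescaled on their own, it fell by 0.34 on the log2 scale (limma adjusted p = 0.0267), so the direction of DDI2 depends on the scaling. The processing and cleavage of NFE2L1 protein were not measured.

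The genes around NFE2L1 were described from fixed lists. Of 7 genes that extract, trim or modify NFE2L1 at the endoplasmic reticulum, none rose and 2 fell (25.1% of all genes tested fell): OGT, the enzyme that attaches N-acetylglucosamine to proteins, by 1.11 on the log2 scale, and SEL1L, an adaptor of the ubiquitin ligase SYVN1, by 0.93. With the length trend removed SEL1L fell by 0.43, and 2 of the 7 genes, NPLOC4 (0.42, limma adjusted p = 0.00102) and NGLY1 (0.27, limma adjusted p = 0.0101), were higher. As deposited, VCP, the ATPase that pulls proteins out of the membrane, had a change of 0.07 and NGLY1, which removes N-glycans, one of 0.25, neither past the test. Of 7 genes for related transcription factors, their partners and KEAP1, NFE2L3 was the 1 that passed the test, and it fell by 0.99. With the length trend removed, 1 of these 7 was higher and 1 lower (24.4% and 21.8% of all genes in that fit). NFE2L2, the oxidative stress factor, was at 24.3, 36.7, 21.3 and 18.4 TPM with DMSO and 35.9, 43.6, 20.8 and 42.3 TPM with EB. Its groups overlapped and the change of 0.48 ± 0.27 did not pass the test (limma adjusted p = 0.177).

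The immunoproteasome subunits were lower with EB, whereas PSMB6 and PSMB7 were higher and PSMB5 did not pass the test. PSMB8 (ENSG00000204264, chr6:32840717-32844679), which replaces PSMB5, was at 59.1, 49.3, 45.9 and 36.5 TPM in the DMSO libraries and 18.5, 17.0, 18.5 and 14.3 TPM in the EB libraries. PSMB9 (ENSG00000240065, chr6:32844136-32859851), which replaces PSMB6, was at 73.4, 60.2, 49.6 and 35.6 TPM against 25.7, 18.0, 20.3 and 15.1 TPM. PSMB10, which replaces PSMB7, was at 80.8, 61.8, 63.4 and 39.2 TPM against 33.3, 22.8, 35.3 and 21.9 TPM. In all 3 genes every EB library lay below every DMSO library. They fell by 1.42 (PSMB8, SE 0.16, limma adjusted p = 0.000318), 1.40 (PSMB9, SE 0.23, limma adjusted p = 0.00175) and 1.07 (PSMB10, SE 0.24, limma adjusted p = 0.00660) on the log2 scale. The tissue-specific subunits PSMB11 and PSMA8 did not reach the level needed for testing.

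Set against their constitutive counterparts in the same library, the immunoproteasome transcripts were also lower with EB. PSMB8 over PSMB5 was 0.300 ± 0.0139 with DMSO and 0.0989 ± 0.0187 with EB. PSMB9 over PSMB6 was 0.338 ± 0.0588 and 0.0745 ± 0.00453, and PSMB10 over PSMB7 was 0.198 ± 0.0295 and 0.0562 ± 0.00848. Each of these ratios was lower in every EB library than in any DMSO library (exact two-sided permutation test, p = 0.0286 for each, n = 4 per group). For PSMB9 over PSMB6 and PSMB10 over PSMB7 this outcome was fixed by the single genes, whose groups lay apart in opposite directions. The p-values of those ratios therefore add nothing to the values of the genes. The summed ratio of PSMB8, PSMB9 and PSMB10 to PSMB5, PSMB6 and PSMB7 was 0.259 ± 0.0274 with DMSO and 0.0690 ± 0.00748 with EB, 0.267 times as high.

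**Figure D4:**
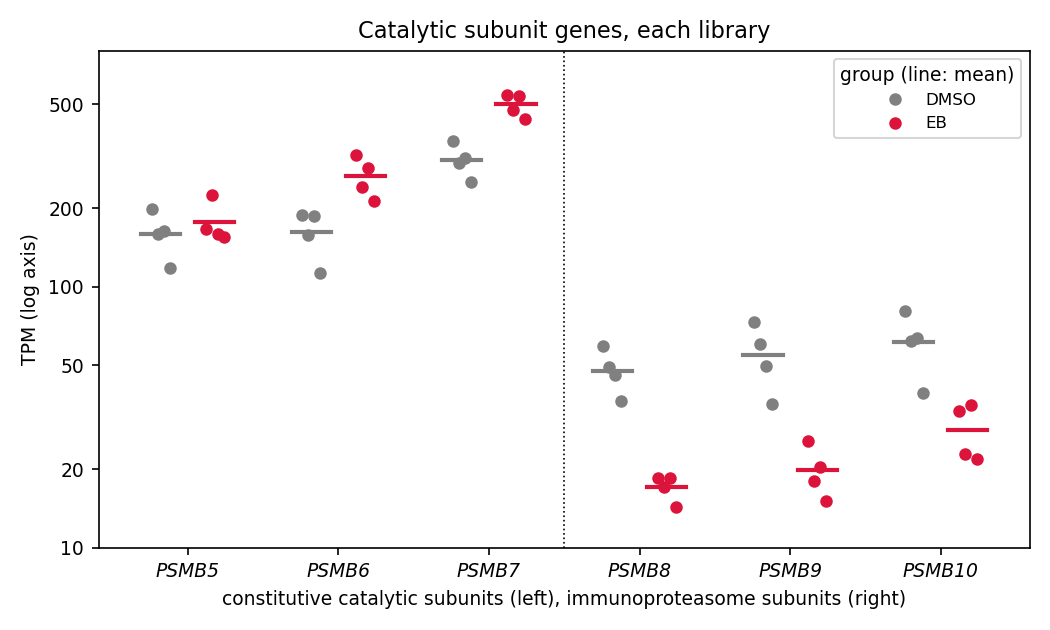
TPM of the constitutive catalytic genes PSMB5, PSMB6 and PSMB7 and of the immunoproteasome genes PSMB8, PSMB9 and PSMB10 (log axis), with each library as a dot and the group mean as a line. PSMB6 and PSMB7 are higher and PSMB8, PSMB9 and PSMB10 lower in every EB library than in any DMSO library, whereas the groups of PSMB5 overlap.

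Genes that work with the proteasome are given beside the shares of all genes tested, of which 15.2% rose and 25.1% fell, and counts of 1 or 2 in lists this small lie near those shares. Among 7 further subunits, assembly and inhibitor genes, SEM1, the smallest subunit of the lid, rose by 0.47 and PSMF1, an inhibitor of the core, by 0.34, and none fell. The call of SEM1 was lost with the length trend removed (0.09, limma adjusted p = 0.469), and that of PSMF1 (limma adjusted p = 0.0499) was lost in several of the other ways of analysis, with limma adjusted p of up to 0.207. With the length trend removed, 2 of these 7 genes were higher, PSMF1 among them. Among 7 enzymes and other proteins bound to the proteasome, ZFAND2A, which is induced by arsenite and by heat, rose by 1.18 and none fell, and the deubiquitinases USP14 and UCHL5 had changes of 0.08 and -0.03 that did not pass the test. With the length trend removed UCHL5 was higher with EB, by 0.31 (limma adjusted p = 0.0478). After that step 3 of these 7 bound proteins were higher, beside 24.4% of all genes in that fit. Of the shuttle proteins that carry ubiquitinated substrates, 5 were tested and 2 fell, UBQLN2 by 0.80 and UBQLN4 by 0.76 on the log2 scale. RPS27A, which encodes ubiquitin fused to a ribosomal protein, rose by 0.61 (0.27 with the length trend removed, limma adjusted p = 0.0653). UBA6, a ubiquitin-activating enzyme, fell by 0.72 on the log2 scale (-0.21 with the length trend removed, limma adjusted p = 0.0438). The polyubiquitin gene UBB had a change of 0.44 that did not pass the test.

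Transcript length moved with the change in this data set, and its part in the results was not tested beyond the values that follow. Over 11685 nuclear genes tested, Spearman's rho between length and log2 fold change was -0.48, and over the 45 proteasome genes it was -0.27. The proteasome transcripts were shorter (median 1540 nt, range 762 to 10667 nt) than those of the nuclear genes tested (median 3222 nt). With the trend with length and GC content removed, 25 of the 45 genes were higher and 2 lower (24.4% and 21.8% of all genes in the same fit). Their median log2 fold change was then 0.39 against 0.02 for all genes. By part, 7 of the 14 core genes and 14 of the 18 regulatory particle genes were higher, none of either was lower, and the lower genes were PSME1 and PSME2. After that step the rho over the 45 genes was 0.36, so the trend of all genes was removed by more than these genes showed.

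**Figure D5:**
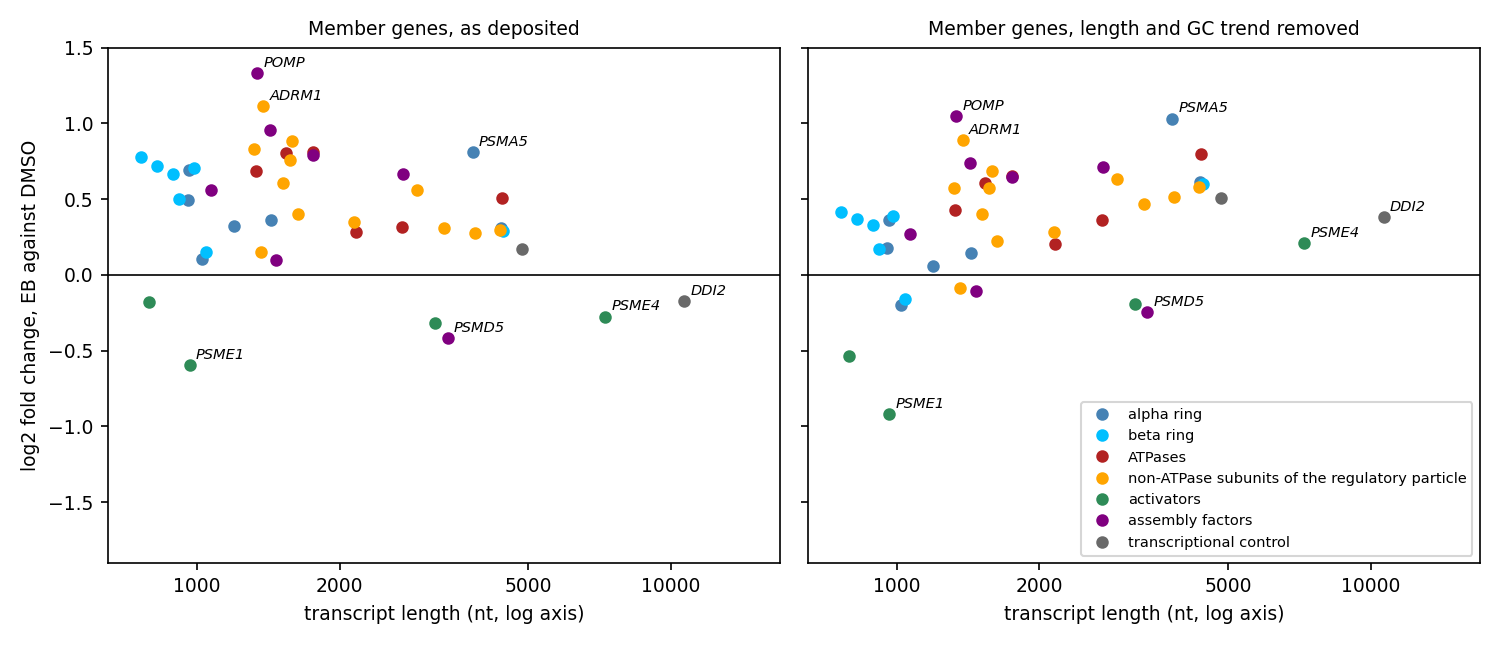
Transcript length (x axis, nt, log axis) against log2 fold change (y axis) for the 45 genes, as deposited (left) and with the trend of all nuclear genes with length and GC content removed (right), coloured by part. Spearman's rho is -0.27 on the left and 0.36 on the right, and POMP and ADRM1 stay among the highest and PSME1 is the lowest in both panels.

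How the authors' counting treated reads shared between genes is not given in the sources used here. Exons of 15 of the 45 genes overlap those of another coding gene, and 18 have annotated pseudogenes, 13 for PSMC1 and 4 for PSMA6. PSMC2, whose EB libraries split, overlaps PMPCB on the same strand and SLC26A5 on the opposite one.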

How the data were processed

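Messenger RNA of 4 DMSO and 4 EB libraries of PANC-1 cells was sequenced on an Illumina NovaSeq instrument. Per the study's methods, reads were trimmed, mapped, counted and normalized in CLC Genomics Workbench. The methods also name Trimmomatic, FastQC, Bowtie2, SAMtools, HISAT2 and StringTie, and which tool gave the TPM is not stated there. Both a human (hg38) and a mouse build are named there, and the identifiers are human. The authors deposited one table of TPM per gene, so no count model was fitted, depth is unknown, and no counting error could be given. Columns headed C were read as DMSO and columns headed H as EB. The methods speak of biological replicates but also of triplicates, so p-values measure the spread between these libraries, which may be technical.

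Genes with at least 1 TPM in at least 4 libraries (11725, with all 45 proteasome genes) were fitted with limma 3.58.1 in R 4.3.3 on log2(TPM + 1), which understates changes of low genes, with Benjamini-Hochberg adjustment over all of them. Single ratios were compared by an exact permutation test over 70 assignments. Transcript length and GC content came from GENCODE 44 and promoter windows from RefSeq (GRCh38.p14). PSMA7, PSMB1, PSMB6, PSMB7, PSMD4 and PSMG3 had no window. The fit was tested on simulated data.

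The 17 other ways of analysis were a pseudocount of 0.1, no filter, a minimum of 5 TPM, median-ratio scaling, quantile normalization, nuclear genes rescaled, removal of the trend with length and GC content, an intensity trend in the variance, a replicate block, and the loss of each library in turn. The study's thresholds were also applied, and the length step without DMSO replicate 4 was chosen after seeing the data. The members, the lists and the rule for named genes were chosen with earlier results of these data known. By that rule, values in every library were given for PSMB5 to PSMB7, POMP, PSMD14, NFE2L1, DDI2, the 2 genes with the largest change in each part, and genes called against the majority. Of other lists, called genes and PSMB8, PSMB9, PSMB10 and NFE2L2 were given, except that some genes of the ubiquitin list are not reported here. VCP, NGLY1, NPLOC4, USP14, UCHL5, UBB, PSMC2 and PSME2 were described beyond the rule, after their values were seen.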

Additional observations from a re-analysis of the deposited data

Results flagged for a closer look

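Of 130 groups of 4 libraries examined, those of the 45 genes and of 20 further genes named in the text, 7 held a library whose gap to the nearest other, divided by the range of the group, passed Dixon's 95% critical value. Chance flags about 1 in 20 groups. PSMB5 was at 224.805 TPM in EB replicate 2, against 166.155 TPM in the next EB library. PSMD7 was at 175.341 TPM in EB replicate 3, against 147.926 TPM. PSME2 was at 108.192 TPM in DMSO replicate 4, below 154.643 TPM in the nearest control library, and this library is the one through which the groups of PSME2 overlapped. NFE2L1 was at 123.214 TPM in DMSO replicate 2, against 57.6871 TPM. ZFAND2A was at 16.6624 TPM in DMSO replicate 1, against 14.0274 TPM. NGLY1 was at 27.7267 TPM in EB replicate 2, against 24.4383 TPM, and OGT at 96.8116 TPM in DMSO replicate 4, against 135.447 TPM. In these 3 genes the EB and DMSO libraries remained apart.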

How the results depend on the processing

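Of the 23 genes called higher, 17 were called higher in all 17 other ways of analysis, and of the 2 called lower, PSME1 was. The calls of PSMA3, PSMA7, PSMB4, PSMD7, PSMD12, PSMG2 and PSMD5 were lost in at least 1 of them. Under the study's thresholds 0 genes were higher and 0 lower. The count of lower genes was 1 with median-ratio scaling (33 higher) and 5 with nuclear genes rescaled (19 higher). Of all genes, 26.3% were lower and 25.9% higher with median-ratio scaling, and 41.4% lower and 12.1% higher with nuclear genes rescaled. The median log2 fold change of the 45 genes was 0.33 with quantile normalization, 0.31 with nuclear genes rescaled and 0.37 with the length trend removed and DMSO replicate 4 left out, while that of all genes was 0.02, -0.28 and 0.02. With nuclear genes rescaled, the summed TPM ratio was 1.38 for the regulatory particle and 0.646 for PSME1 and PSME2. Leaving out a library gave 18 to 25 higher and 1 to 3 lower genes, a median of 0.36 to 0.54, and ratios of EB to DMSO of 1.04 to 1.09 (regulatory particle over core), 0.908 to 0.936 (alpha over beta), 0.985 to 1.03 (ATPases over non-ATPases), 0.490 to 0.507 (PSME1 and PSME2 over core) and 0.257 to 0.276 (immunoproteasome over catalytic). In the fits with a library left out, 10.6 to 15.7% of all genes were higher and 16.9 to 36.4% lower. The lone lower gene was PSME1 without DMSO replicate 2, DMSO replicate 3, EB replicate 1 or EB replicate 3.

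Signs turned for genes that had not passed the test, and the cause was not tested: with quantile normalization, PSMA6 (-0.11), PSMB5 (-0.0301) and DDI2 (0.13); with nuclear genes rescaled, PSMA6 (-0.0816), PSMB5 (-0.0336), PSMD6 (-0.0344), PSMD10 (-0.0801) and NFE2L1 (-0.0130); with the length trend removed, PSMA6 (-0.20), PSMB5 (-0.16), PSMD6 (-0.0842), PSME4 (0.21), PSMD10 (-0.11) and DDI2 (0.38). With DMSO replicate 4 left out too, the values were -0.16 (PSMA6), -0.21 (PSMB5), -0.0760 (PSMD6), 0.0471 (PSME3), 0.25 (PSME4), -0.11 (PSMD10) and 0.41 (DDI2). The share of higher among all called genes was 37.7%, and 49.7% with median-ratio scaling, 50.3% with quantile normalization, 52.8% with the length trend removed and 22.7% with nuclear genes rescaled. Libraries with the same number correlated by 0.183, 0.0463, -0.0879 and 0.284 in their deviations from the group means. Those with unlike numbers correlated by -0.238 to 0.126, below the values of replicates 1 and 4. The numbers were taken as names, and a pairing by number was not tested beyond the replicate block. With the replicate block, 25 genes were higher and 2 lower. Without counts, low genes such as DDI2 carry an unknown counting error.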
